A study of Canis lupus familiaris with 7 samples.

Results

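The unfolded protein response genes described here are 10 genes chosen by symbol: *HSPA5*, *HSP90B1*, *XBP1*, *ATF4*, *DDIT3*, *HERPUD1*, *DNAJB9*, *PDIA4*, *SEL1L* and *CRELD2*. Of these 10, 9 were listed by symbol among the 24580 genes of the expression table, and *XBP1* was not listed by symbol, so no value is given for it. All 9 passed the filter on low levels (mean of 1 FPKM or more) and entered the tests. FPKM (fragments per kilobase of transcript, scaled to the mapped fragments of the library) is corrected for transcript length, so levels of different genes can be set side by side on it.

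RNAseq was performed on bone from dogs with osteosarcoma (OSA), a malignant tumor of bone in which the tumor cells lay down bone matrix. The 4 non-tumor samples (N1, N3, N8 and N9) were bone with no visible malignancy, and the 3 OSA tumor samples (T1, T3 and T10) were tumor tissue whose diagnosis rested on histopathology. Pieces of tumor and of nearby bone were collected at amputation or after euthanasia and placed in RNAlater, and stranded paired-end libraries of total RNA were sequenced on an Illumina HiSeq platform. Breed, age, sex and treatment of the dog behind each sample are not given in the sources used here. The labels call the adjacent bone matched, and numbers 1 and 3 occur in both groups, but no label states that a number marks a dog, so the p-values below measure only the spread between these 7 samples.

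Secreted and membrane proteins fold in the endoplasmic reticulum (ER). When unfolded protein builds up there, the ER membrane sensors IRE1, PERK and ATF6 start the unfolded protein response: IRE1 splices the mRNA of *XBP1*, PERK slows translation while favouring that of *ATF4*, and ATF6 is cut to release a transcription factor. The targets of these factors include ER chaperones, enzymes of disulfide bond formation and the machinery of ER-associated degradation, and prolonged stress induces *DDIT3*, which encodes the transcription factor CHOP. Osteoblasts, the cells from which bone matrix comes, secrete type I collagen in large amounts, and *COL1A2*, which encodes the alpha-2 chain of type I collagen, was the gene set against the response here as a measure of collagen output.

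Across the series, no gene of the 13507 tested had an adjusted p under 0.05 (limma, Benjamini-Hochberg, smallest 0.693), against 927 at an unadjusted p under 0.05. A gene was called where its log2 fold change was at least 1 in either direction with an unadjusted limma p under 0.05, and 6.86% of the tested genes were called (3.28% higher and 3.58% lower in tumor). The samples differed in their makeup. Summed over 11 skeletal muscle markers, non-tumor samples held 86.3 to 78639.6 FPKM and tumors 8.28 to 24.6 FPKM, with 9 of the 11 markers called lower and 7 under 1 FPKM in every tumor. Granulocyte markers (6 of 7 called lower) summed to 336 to 25639.5 FPKM in non-tumor and 11.0 to 547 FPKM in tumor, and erythroid markers (7 of 10 called lower) to 38.1 to 4696 FPKM and 33.1 to 122 FPKM. When 1 sample was left out, 6 to 10 muscle, 3 to 6 granulocyte and 0 to 9 erythroid markers were called lower, the 0 without N8 and with 1 left without N3, T1 or T3. Osteoblast markers summed to 116 to 1637 FPKM in non-tumor and 972 to 3745 FPKM in tumor. *SPP1*, which other cells also express, made up 1448 FPKM of the sum in T3, and without it the sums were 20.6 to 1047 FPKM in non-tumor, 2297 in T1, 174 in T3 and 492 in T10. The osteoblast transcription factor *RUNX2* was above 6 FPKM in all 7 samples, whereas *SP7* was under 1 FPKM in N8 (0.0833), N9 (0.702) and T3 (0.991). No gene was called among 6 macrophage, 6 osteoclast and 8 cell cycle markers. The part of these cell types in the results below was not tested, and in pieces of tissue fewer cells of a type and less RNA per cell cannot be told apart. Depth could not be read directly from FPKM. Steps between the lowest values gave a rough estimate of 0.543 (N8) to 1.44 (T10) relative to N1, which rests on 69 to 297 genes that share a ratio in each sample and on a scaling between libraries that is not stated.

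Of the 9 unfolded protein response genes, *HSPA5*, *HSP90B1*, *DDIT3* and *CRELD2* were called higher in OSA tumor, and none was called lower. In these 4 genes every tumor sample lay above every non-tumor sample, a pattern that 3.04% of all tested genes showed. Log2 fold changes were positive for 8 of 9, with a median of 1.32 against -0.02 over all tested genes. The adjusted p of each of the 4 called genes was 0.693 (limma, Benjamini-Hochberg). For a single gene the two-sided exact permutation test over the 35 ways to divide the 7 samples into 4 and 3 cannot give a p under 0.0571, so it could not reach 0.05. In a fit of the 4 samples numbered 1 and 3, with the number as a block, *CRELD2* was the 1 gene of the 9 called, at a log2 fold change of 1.48, with *HSPA5* at 1.82, *DDIT3* at 2.03 and *HSP90B1* at 0.64.

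**Figure D1:**
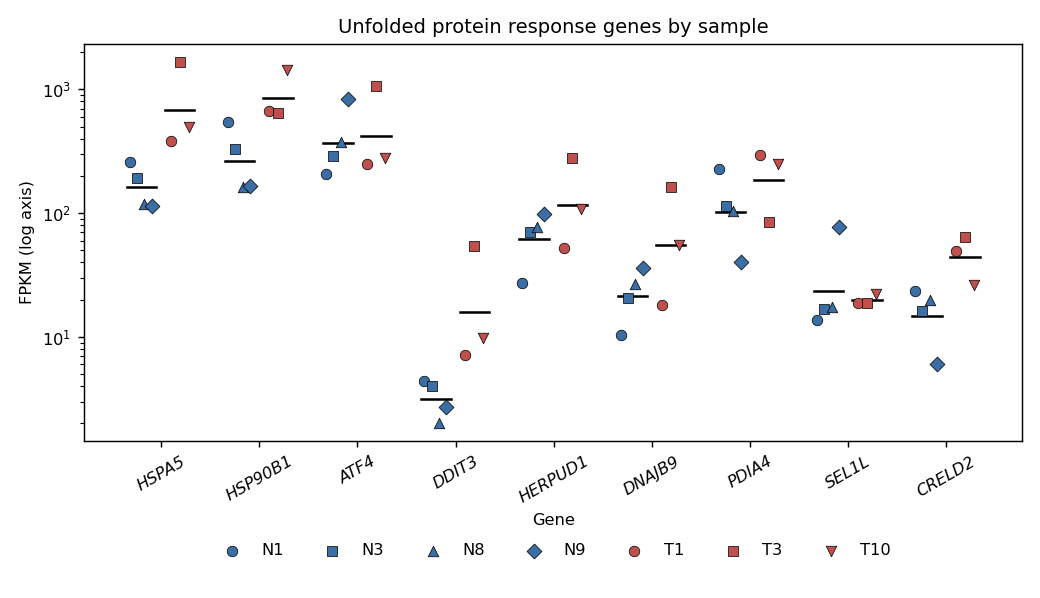
Level of the 9 listed unfolded protein response genes in each sample, in FPKM on a log axis. Blue markers are the 4 non-tumor samples, red markers the 3 OSA tumor samples, and black lines the group means of log2(FPKM + 1) turned back to FPKM; the groups do not overlap for *HSPA5*, *HSP90B1*, *DDIT3* and *CRELD2*.

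*HSPA5* encodes BiP, the main ER chaperone of the Hsp70 family, which also holds the stress sensors inactive. It lies on chromosome 9 of CanFam3.1 (57851094 to 57877922, ENSCAFG00000020196), an interval the table gives for 2 genes. Its level was 259 FPKM (N1), 194 (N3), 118 (N8) and 115 (N9), against 379 (T1), 1663 (T3) and 492 (T10). The groups did not overlap, and T3 stood 3.38 times above the next sample and held 65.6% of the summed tumor level. Mean levels were 845 ± 711 FPKM in tumor (SD, n = 3) and 171 ± 69.1 FPKM in non-tumor (SD, n = 4), a ratio of means of 4.93. The log2 fold change was 2.06 with a standard error of 0.67 (limma p = 0.0128; exact permutation p = 0.0571). *HSPA5* was called in each of the 7 fits that left out a sample, with log2 fold changes from 1.42 without T3 (SE 0.59) to 2.48 without T1.

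*HSP90B1* encodes GRP94, the ER member of the Hsp90 family (chromosome 15, 42456790 to 42474117, ENSCAFG00000007427). Its level was 543 FPKM (N1), 331 (N3), 164 (N8) and 167 (N9), and 674 (T1), 645 (T3) and 1428 (T10). T10 and not T3 was highest, and the gap between T3 and N1, the nearest samples of the groups, was narrow. The mean was 916 ± 444 FPKM in tumor (SD, n = 3) and 301 ± 179 FPKM in non-tumor (SD, n = 4). This was a log2 fold change of 1.68 with a standard error of 0.66 (limma p = 0.0306; exact permutation p = 0.0571). The call was lost without N8 (log2 fold change 1.45), without N9 (1.46) and without T10 (1.31).

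*CRELD2* encodes a small ER protein with disulfide isomerase activity that ER stress induces. It was at 23.7 FPKM (N1), 16.0 (N3), 20.0 (N8) and 6.0 (N9), and at 49.8 (T1), 63.7 (T3) and 26.5 (T10). N9 was far below the other non-tumor samples, and T10 was just above N1. Means were 46.7 ± 18.8 FPKM in tumor (SD, n = 3) and 16.4 ± 7.63 FPKM in non-tumor (SD, n = 4), with a log2 fold change of 1.51 and a standard error of 0.57 (limma p = 0.0264; exact permutation p = 0.0571). The call was lost without N9 (log2 fold change 1.12), without T1 (1.42) and without T3 (1.24). The gene lies on chromosome 10 (ENSCAFG00000000709), where the table gives 1 interval, 17067247 to 17293408, for 6 genes.

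*PDIA4* and *DNAJB9*, the other folding helpers of the set, were not called. *PDIA4*, a protein disulfide isomerase of the ER (chromosome 16, 1797420 to 1818429), was at 228 FPKM (N1), 114 (N3), 103 (N8) and 40.2 (N9), against 293 (T1), 85.4 (T3) and 249 (T10). Here T3 was the lowest tumor and lay inside the range of non-tumor. *PDIA4* had a log2 fold change of 0.85 with a standard error of 0.70 (limma p = 0.260; exact permutation p = 0.4). *DNAJB9*, a J-domain partner of BiP (chromosome 14, 48882615 to 48886206), was at 10.3 FPKM (N1), 20.7 (N3), 26.9 (N8) and 36.2 (N9), and at 18.3 (T1), 164 (T3) and 55.2 (T10). T1 lay above N1 and below the other 3 non-tumor samples, while T3 held 69.1% of the summed tumor level. *DNAJB9* had a log2 fold change of 1.32 with a standard error of 0.75 (limma p = 0.108; exact permutation p = 0.229), and 0.55 without T3 and 2.10 without T1, the latter past the threshold.

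Of the transcription factors, *DDIT3* was called and *ATF4* was not. *DDIT3* was the lowest of the 9 genes in non-tumor, at 4.41 FPKM (N1), 3.98 (N3), 2.01 (N8) and 2.72 (N9), and it was at 7.08 (T1), 54.7 (T3) and 9.78 (T10). All 3 tumors lay above N1, and T3 stood 5.60 times above the next sample and held 76.4% of the summed tumor level. Means were 23.9 ± 26.8 FPKM in tumor (SD, n = 3) and 3.28 ± 1.11 FPKM in non-tumor (SD, n = 4). The log2 fold change on the log2(FPKM + 1) scale, which understates the change of genes this low, was 2.02 with a standard error of 0.69 (limma p = 0.0159; exact permutation p = 0.0571). Without T3 it was 1.16 with a standard error of 0.52, and the call was lost.

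*ATF4*, the transcription factor whose translation PERK favours and whose mRNA level is therefore only part of its regulation, was at 207 FPKM (N1), 288 (N3), 373 (N8) and 838 (N9) (chromosome 10, 25528476 to 25530202). In tumor it was at 250 (T1), 1057 (T3) and 280 (T10). T3 and N9 stood above the other samples, and T1 and T10 lay within the range of the non-tumor samples. *ATF4* had a log2 fold change of 0.19 with a standard error of 0.74 (limma p = 0.809; exact permutation p = 0.857), and it was -0.09 without N1 and -0.48 without T3.

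The degradation genes *HERPUD1* and *SEL1L* were not called. *HERPUD1* encodes an ER membrane protein that brings parts of the degradation complex together and is itself induced by ER stress (chromosome 2, 59388292 to 59399915). It was at 27.4 FPKM (N1), 69.9 (N3), 77.2 (N8) and 98.1 (N9), against 51.8 (T1), 277 (T3) and 107 (T10). T3 held 63.5% of the summed tumor level, and T1 lay above N1 and below the other 3 non-tumor samples. Its log2 fold change was 0.89 with a standard error of 0.69 (limma p = 0.224; exact permutation p = 0.343).

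*SEL1L*, the adaptor of the ubiquitin ligase HRD1 in the ER membrane (chromosome 8, 53771761 to 53824492), had the narrowest range of the 9 genes among tumors, with 18.8 FPKM (T1), 18.8 (T3) and 22.2 (T10). In non-tumor it was at 13.6 FPKM in N1, 16.7 in N3 and 17.3 in N8, and at 76.7 in N9, which was 3.46 times the next sample. The log2 fold change was -0.24 with a standard error of 0.62 (limma p = 0.712; exact permutation p = 0.914) and turned to 0.32 without N9.

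T3 was the highest of the 7 samples for 6 of the 9 genes (*HSPA5*, *ATF4*, *DDIT3*, *HERPUD1*, *DNAJB9* and *CRELD2*), against 17.5% of all tested genes, a count made after the values were seen. The other 3 genes peaked in T10 (*HSP90B1*), T1 (*PDIA4*) and N9 (*SEL1L*). The lowest sample was N1 for 4 genes, N9 for 3 and N8 for 2, and a tumor was lowest for none, whereas over all tested genes N1 was lowest for 13.3%, N8 and N9 for 16.1% each and the tumors for 11.9% to 17.8% each. Without T3, 2 of the 9 genes were called (*HSPA5* and *HSP90B1*), as were 2 without N9 (*HSPA5* and *DDIT3*), and 3 to 4 without any other sample. Over all tested genes 4.46% were called without T3 and 5.09% without N9, from 6.86%.

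**Figure D2:**
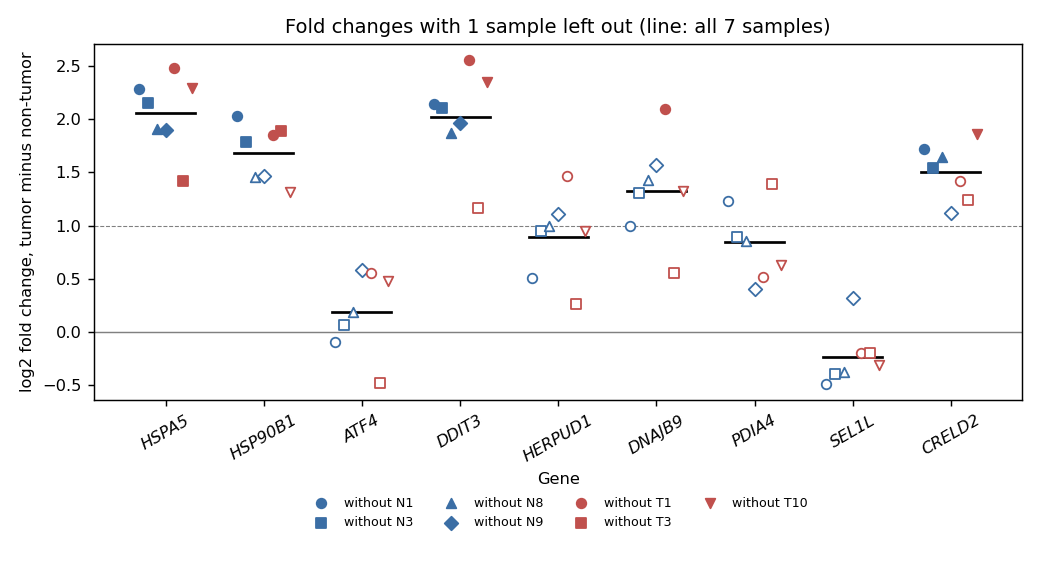
Log2 fold change (tumor minus non-tumor) of the 9 genes when 1 sample is left out. Black lines are the values from all 7 samples, filled markers are values past the threshold and open markers values that are not, blue for a non-tumor and red for a tumor sample left out; *HSPA5* is filled throughout, and the red square, without T3, is the lowest value for *HSPA5*, *DDIT3*, *DNAJB9*, *ATF4* and *HERPUD1*.

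The level of *DDIT3* in T3 was set beside that of its neighbours on chromosome 10 (1588898 to 1608728, an interval the table gives for *DDIT3* and *MARS* together), after the values were seen. Within 500000 bases on either side, 37 other tested genes had a median log2(FPKM + 1) in T3 that was 1.44 above the median of the other 6 samples, against 3.42 for *DDIT3* itself, and 19 of the 37 were highest in T3. Among 12547 overlapping windows of 25 consecutive tested genes, 40 had a median in T3 as high as the window centred on *DDIT3*, and the highest of all, at 2.52, was centred on *AVIL*, also within those 500000 bases. The cell cycle kinase *CDK4*, in the same stretch, was at 373 FPKM in T3 and at 35.1 in T1 and 74.9 in T10, and *OS9*, a lectin of ER-associated degradation, at 309 FPKM in T3, 80.7 in T1 and 89.9 in T10. The neighbours of the other 5 genes that peaked in T3 had medians of 0.39 for *HSPA5* (4 of 10 highest in T3), 0.86 for *ATF4* (7 of 12), 0.46 for *HERPUD1* (10 of 22), 0.16 for *DNAJB9* (0 of 3) and -0.28 for *CRELD2* (0 of 28). *RABEPK*, which shares the interval of *HSPA5*, was at 483 FPKM in T3 and 12.4 to 64.8 FPKM in the other samples, and its log2(FPKM + 1) in T3 was 3.56 above the median of the others, against 2.89 for *HSPA5*. The part of the neighbouring genes' levels in those of *DDIT3* and *HSPA5* was not tested.

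The wider pathway was described with 5 lists of genes. Among 14 further ER chaperones and foldases, 3 were called higher and none lower, all 14 had positive log2 fold changes, and the median was 1.07. *HYOU1*, an exchange factor for BiP, had a log2 fold change of 1.67 (SE, the standard error of the log2 fold change, 0.61, exact permutation p = 0.114), *ERO1A*, the oxidase that supplies disulfide bonds, 1.33 (SE 0.56, exact permutation p = 0.114), and *DNAJB11*, another J-domain partner of BiP, 1.24 (SE 0.47, exact permutation p = 0.0571). *DNAJB11* was at 38.3 to 78.4 FPKM in non-tumor and 104 to 146 FPKM in tumor, with no overlap. The lectin chaperones *CALR* and *CANX* did not overlap between the groups either, and their log2 fold changes of 1.16 (SE 0.62, exact permutation p = 0.0571) and 0.95 (SE 0.55, exact permutation p = 0.0571) were not called. No gene of this list was called without N8 and none without N9, and 1 was called without T3 and 1 without T10. The list median was 1.07 without N8, 0.77 without N9, 1.06 without T3 and 1.04 without T10, and the share of all tested genes called without N8 was 2.36%.

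Of 15 sensors and regulators of the response, *PPP1R15A* and *NFYA* were called higher and none lower, with a list median of 0.23. *PPP1R15A* encodes GADD34, which reverses the translational block set by PERK. It was at 9.20 FPKM (N1), 3.15 (N3), 2.15 (N8) and 3.37 (N9), and at 15.0 (T1), 40.2 (T3) and 9.89 (T10), with a log2 fold change of 1.97 (SE 0.62, exact permutation p = 0.0571). *NFYA*, a subunit of the factor that binds with ATF6 at ER stress elements, had a log2 fold change of 1.23 (SE 0.50, exact permutation p = 0.0571). The sensor genes themselves had log2 fold changes of -0.08 for *ERN1* (IRE1; standard error 0.48, exact permutation p = 0.914), 0.71 for *EIF2AK3* (PERK; standard error 0.52, exact permutation p = 0.229) and 0.18 for *ATF6* (SE 0.56, exact permutation p = 0.686). Without T3 neither was called, at log2 fold changes of 1.43 for *PPP1R15A* and 0.88 for *NFYA*, and the list median was 0.69. In this list 1 gene was called without N3, N8, N9 or T10, with list medians of 0.24, 0.20, 0.39 and 0.22.

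Among 13 targets of ATF4 and CHOP, 4 were called higher and none lower, and the median log2 fold change was 0.59. The secreted glycoprotein gene *STC2* was at 0.427 to 2.12 FPKM in non-tumor and 4.64 to 6.55 FPKM in tumor (log2 fold change 1.83, standard error 0.49, exact permutation p = 0.0571). The transcription factor *CEBPG* was at 6.14 to 15.6 FPKM in non-tumor and 21.8 to 57.7 FPKM in tumor (1.81, standard error 0.51, exact permutation p = 0.0571). *TRIB3*, a pseudokinase that CHOP induces, had a log2 fold change of 2.15 (SE 0.86, exact permutation p = 0.171) and *ATF5* one of 2.08 (SE 0.90, exact permutation p = 0.0571). *ATF5* was at 77.0 FPKM in T3 and at 5.56 in T1 and 4.28 in T10, and *ATF3*, which was not called (1.68, standard error 0.93, exact permutation p = 0.286), at 76.2 FPKM in T3 and 2.71 and 11.5 in the other tumors. Of the 13, 3 were called without T3, and 2 without N3, without N8 and without N9. The list median was 0.18 without T1, 1.2 without T10 and 0.44 to 0.77 without any other sample. *MTHFD2* was listed at 0 in all 7 samples.

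Of 19 genes of ER-associated degradation, *OS9* and *ERLEC1* were called higher and *DERL3* lower, with a list median of 0.03. *OS9* and *ERLEC1*, lectins that pass glycoproteins to the SEL1L complex, had log2 fold changes of 1.54 (SE 0.62, exact permutation p = 0.0571) and 1.09 (SE 0.47, exact permutation p = 0.114), and *OS9* lies in the stretch of chromosome 10 beside *DDIT3*. *DERL3*, a membrane protein of the same machinery, was at 1.12 FPKM (N1), 17.0 (N3), 9.59 (N8) and 0.683 (N9), and at 0.592 (T1), 0.114 (T3) and 0 (T10) (log2 fold change -2.08, standard error 0.86, exact permutation p = 0.0571). The plasma cell gene *MZB1* was at 58.0 FPKM in N3 and 25.3 in N8 and under 1 FPKM in the other 5 samples, the same pair of samples that were high for *DERL3*. Summed over 12 plasma cell and B lymphocyte markers, N3 held 3497 FPKM and N8 901 FPKM, against 52.1 to 137 FPKM in the other samples, and 2 of the 11 markers tested were called lower. When 1 sample was left out, 0 to 5 of them were called lower, 0 without N8, T1 or T10 and 5 without N9. The part of these cell types in the *DERL3* result was not tested. No gene of this list was called without T3, where log2 fold changes were -2.02 for *DERL3*, 1.01 for *ERLEC1* and 0.92 for *OS9*, and none without N8. *DERL3* was also not called without N3, T1 or T10.

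Of 18 genes of ER entry and collagen export, 4 were called higher and none lower, with a median of 0.81. *SERPINH1*, the collagen chaperone HSP47, had a log2 fold change of 2.81 (SE 1.14, exact permutation p = 0.171). *SEC61B* and *SEC61A1*, subunits of the channel through which proteins enter the ER, had 2.04 (SE 0.83, exact permutation p = 0.0571) and 1.53 (SE 0.62, exact permutation p = 0.114), and *SEC24D*, a coat protein of the vesicles that leave the ER with procollagen, 1.67 (SE 0.61, exact permutation p = 0.0571). These 4 were not called in every fit that left out a sample: the count was 0 without N9, 1 without N8, 1 without T10, 2 without N3 and 7 without N1, and it was 4 without T3. The list median was 0.72 without N9, 0.68 without N8, 0.58 without T10, 0.72 without N3 and 0.95 without N1.

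**Figure D3:**
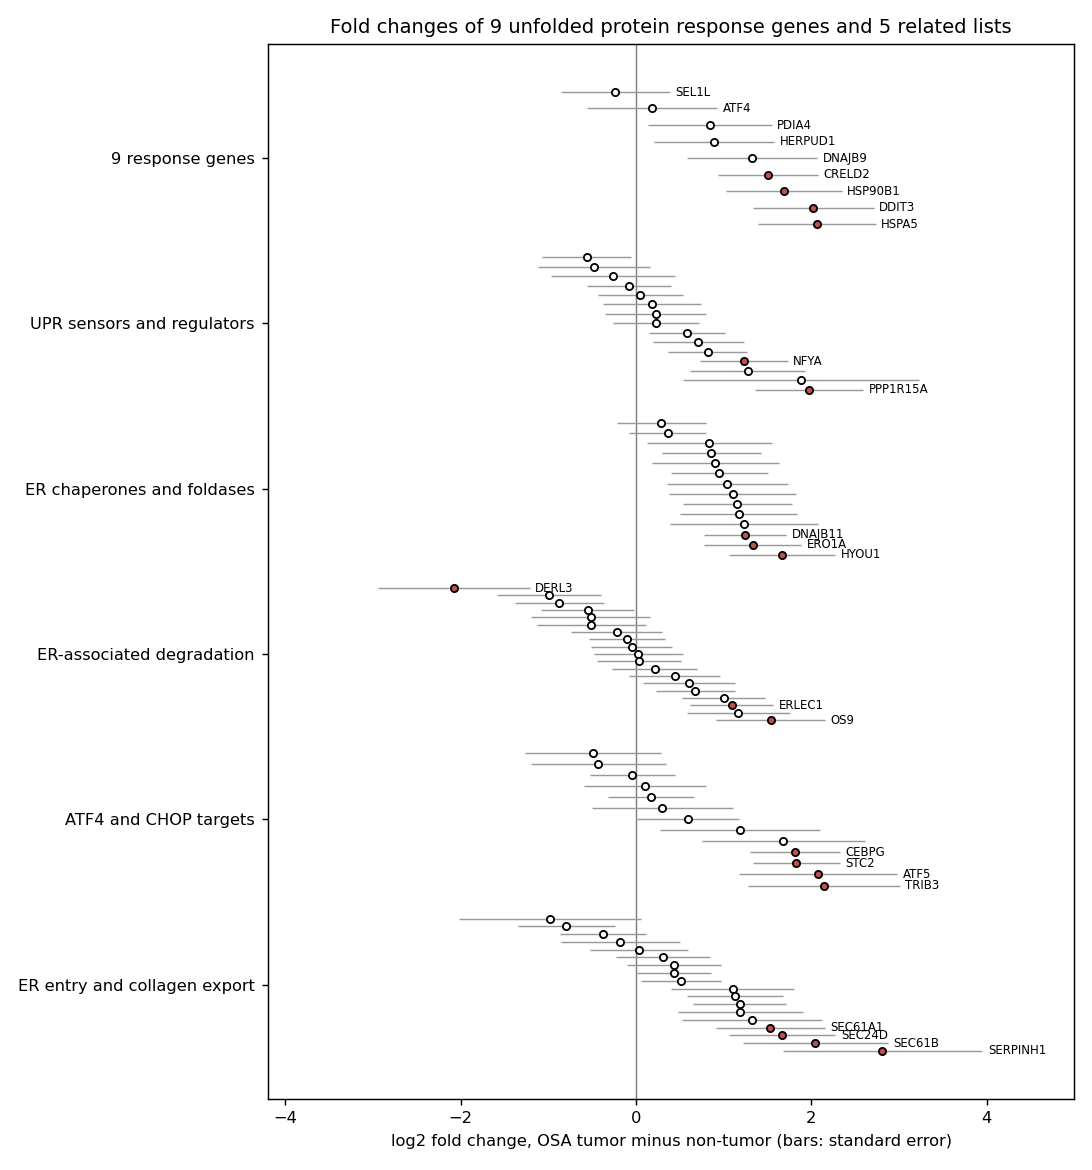
Log2 fold change (tumor minus non-tumor, horizontal axis) of the 9 unfolded protein response genes and of every tested gene in 5 related lists, with bars for the standard error. Filled points passed the threshold and are named, open points did not; all 14 chaperones and foldases lie to the right of 0, and the genes of ER-associated degradation lie on both sides of it.

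**Figure D4:**
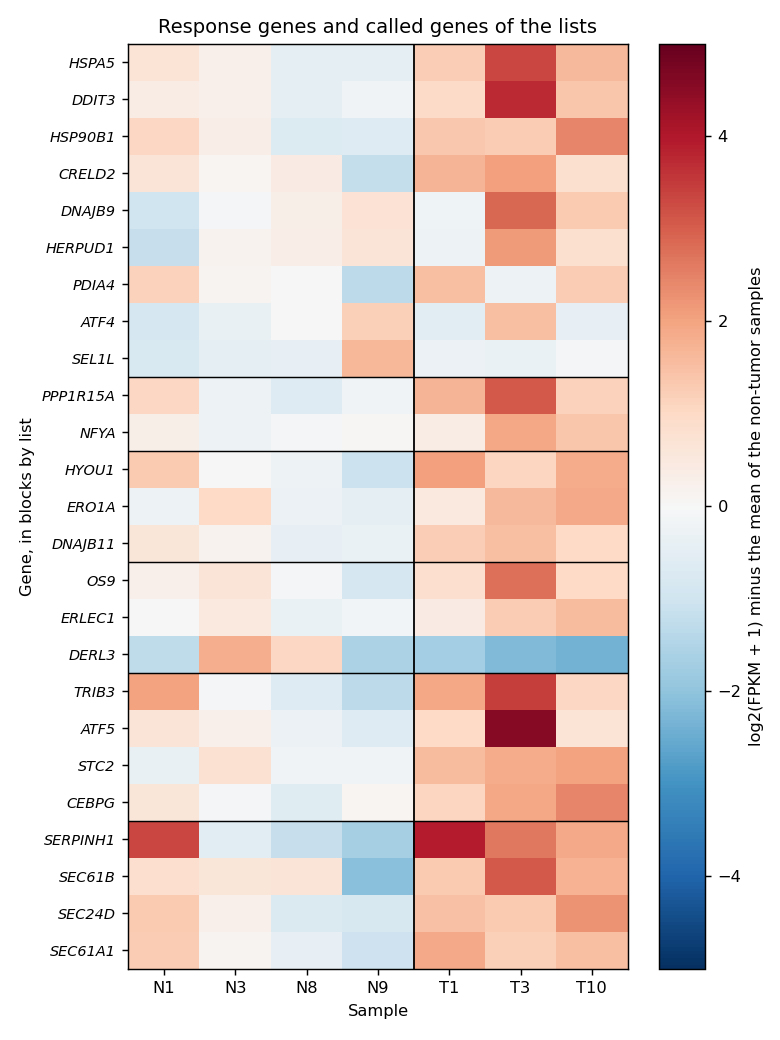
Levels per sample of the 9 response genes (top block) and of the called genes of the 5 lists (blocks below, in the order sensors and regulators, chaperones and foldases, ER-associated degradation, ATF4 and CHOP targets, ER entry and collagen export), as log2(FPKM + 1) minus the mean of the 4 non-tumor samples. Red is above and blue below that mean; T3 is the reddest sample in the lines of *HSPA5*, *DDIT3*, *DNAJB9* and *ATF5*, and *DERL3* is blue in all 3 tumors.

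How the response genes varied together was described by the correlation of each with *HSPA5* across the 7 samples, on log2(FPKM + 1), with an exact permutation test over all pairings of the 7 values. At a two-sided p under 0.05, 3 of the other 8 genes were correlated with *HSPA5*, against 12.4% of 13506 tested genes, none of which reached an adjusted p under 0.05 (exact permutation, Benjamini-Hochberg over all tested genes, smallest 0.158). *DDIT3* followed *HSPA5* most closely (Pearson r = 0.98, exact permutation p = 0.000397, adjusted p = 0.185; Spearman rho = 0.96, exact permutation p = 0.00278). It did so also without N9 and T3, the samples farthest from the median of *HSPA5* (r = 0.99), and with the group means removed (r = 0.96, exact permutation p = 0.0139, pairings within groups only). *CRELD2* had r = 0.83 (exact permutation p = 0.0238, adjusted p = 0.355; rho = 0.93, exact permutation p = 0.00675), which was 0.63 without N9 and T3 and 0.54 with the group means removed (exact permutation p = 0.229). *HSP90B1* had r = 0.74 (exact permutation p = 0.0496, adjusted p = 0.402; rho = 0.86, exact permutation p = 0.0238), which was 0.98 without N9 and T3 and 0.26 with the group means removed.

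The remaining 5 genes did not pass. Pearson r with *HSPA5* was 0.67 for *DNAJB9* (exact permutation p = 0.0984), 0.56 for *HERPUD1* (p = 0.183, exact), 0.28 for *PDIA4* (p = 0.553, exact), 0.28 for *ATF4* (p = 0.554, exact) and -0.34 for *SEL1L* (p = 0.408, exact). *PDIA4* rose to r = 0.90 without N9 and T3, where 5 samples remained. Across the whole table, the genes most like *HSPA5* by Pearson r were *NINJ2* and *LDLRAD3* (both 0.99), *HSPA4L* (0.99), *HHAT* (0.98) and *MSX2* (0.98). Each of these 5 was highest in T3: *HSPA4L*, a cytosolic chaperone related to the Hsp70 family, was at 49.5 FPKM in T3 and 1.41 to 8.81 in the other samples, and *MSX2*, a homeobox factor of bone development, at 108 FPKM in T3 and 0.146 to 7.27 in the other samples.

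To relate the response to collagen output, each gene was compared with *COL1A2* in the same samples. *COL1A2* (chromosome 14, 19883733 to 19920718) was at 5931 FPKM (N1), 450 (N3), 46.9 (N8) and 148 (N9), and at 9139 (T1), 342 (T3) and 2285 (T10). It was highest in the samples numbered 1 of both groups, and T3, the sample with the most *HSPA5*, had less *COL1A2* than N3. The log2 fold change of *COL1A2* was 2.37 with a standard error of 1.63 (limma p = 0.178; exact permutation p = 0.343). Single samples moved it widely, to 3.71 without N1, where it was called higher, 3.62 without T3, 1.39 without N8 and 1.25 without T1, and over the 4 samples numbered 1 and 3, with the number as a block, it was 0.12. *COL1A1* was listed at 0 in T1, the sample with the most *COL1A2*, so *COL1A1* was not used. The fibrillar collagens differed from one another in T10, where *COL3A1* was at 1.14 FPKM and *COL5A2* at 2.16 FPKM, each the lowest of the 7 samples, while *COL5A1* was at 60.5 FPKM, below N1 and T1 alone. Pearson r with *COL1A2* was 0.53 for *COL3A1* (exact permutation p = 0.225), 0.58 for *COL5A2* (exact permutation p = 0.168) and 0.96 for *COL5A1* (exact permutation p = 0.000397, adjusted p = 0.158).

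Of the 9 response genes, 1 was correlated with *COL1A2* at a two-sided exact permutation p under 0.05, against 14.8% of 13506 tested genes, and 5 of 9 coefficients were positive, with a median of 0.19. The gene was *PDIA4* (Pearson r = 0.82, exact permutation p = 0.0242, adjusted p = 0.289; Spearman rho = 0.86, exact permutation p = 0.0238). Its r was 0.66 without N1 and T1, the samples farthest from the median of *COL1A2*, and 0.78 with the group means removed (exact permutation p = 0.0764), and its p passed 0.05 when N1, N3 or T1 was left out (exact permutation p of 0.0528, 0.0611 and 0.0681). With the mean log2 level of *COL3A1*, *COL5A1* and *COL5A2* in place of *COL1A2*, *PDIA4* had r = 0.48 (exact permutation p = 0.273) and none of the 9 genes had a p under 0.05. *HSP90B1* was next (r = 0.75, exact permutation p = 0.0587, adjusted p = 0.347; rho = 0.75), and its r was 0.91 without N1 and T1.

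*HSPA5* had r = 0.35 with *COL1A2* (exact permutation p = 0.453; rho = 0.50). T3 decided this value: without it r was 0.86 (exact permutation p = 0.0472), and with the group means removed it was -0.037. *CRELD2* (r = 0.45, exact permutation p = 0.322) and *DDIT3* (r = 0.19, exact permutation p = 0.725) had positive coefficients that did not pass. Coefficients were negative for *ATF4* (r = -0.61, exact permutation p = 0.161; rho = -0.82, exact permutation p = 0.0341, adjusted p = 0.305), *HERPUD1* (r = -0.49, exact permutation p = 0.265), *DNAJB9* (r = -0.37, exact permutation p = 0.430) and *SEL1L* (r = -0.37, exact permutation p = 0.484). Once the group means were removed, *HERPUD1* (r = -0.90, exact permutation p = 0.0208) and *DNAJB9* (r = -0.85, exact permutation p = 0.0278) had a p under 0.05, each in the direction opposite to *PDIA4*. Without N1 and T1, r was 0.20 for *HERPUD1* and 0.29 for *DNAJB9* as measured, so the negative sign over all samples rested on those samples, and -0.68 and -0.73 with the group means removed, over the 5 samples left.

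**Figure D5:**
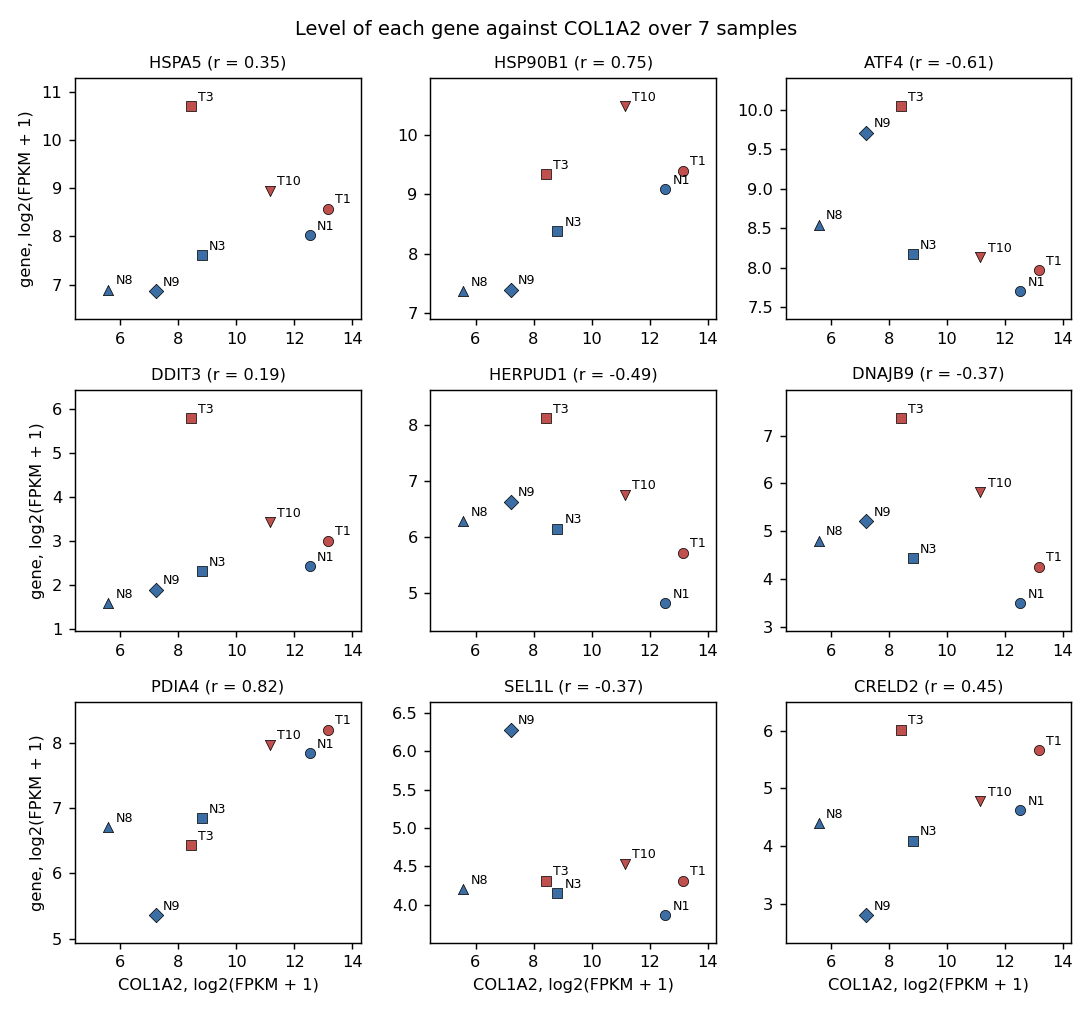
Each panel plots log2(FPKM + 1) of 1 response gene (vertical axis) against that of *COL1A2* (horizontal axis) for the 7 samples, blue for non-tumor and red for OSA tumor, with Pearson r in the title. *PDIA4* (r = 0.82) and *HSP90B1* (r = 0.75) are high where *COL1A2* is high, whereas T3 stands above the other samples for *HSPA5*, *DDIT3*, *HERPUD1* and *DNAJB9* at a middle level of *COL1A2*.

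In the related lists, 4 of 14 chaperones and foldases had an exact permutation p under 0.05 with *COL1A2* (14.8% of all tested genes), all positive: *PDIA5* (r = 0.98), *P4HB* (0.85), *HYOU1* (0.84) and *TXNDC5* (0.76). *P4HB* encodes the disulfide isomerase that is also a subunit of collagen prolyl hydroxylase. Among 18 genes of ER entry and collagen export, 5 had such a p, with positive r for *SEC31A* (0.86), *SERPINH1* (0.86), *SEC61A1* (0.84) and *SEC24D* (0.80) and a negative one for *SAR1B* (-0.79). Of 15 sensors and regulators *CREB3L1*, a membrane-bound transcription factor of osteoblasts that drives transcription of type I collagen, had r = 0.96, and of 13 ATF4 and CHOP targets *NUPR1* had r = 0.81. With the group means removed, the exact permutation p stayed under 0.05 for *PDIA5* (0.0139), *CREB3L1* (0.0139), *NUPR1* (0.0278) and *SEC61A1* (0.0417) and was 0.0556 to 0.160 for the other 7. It fell under 0.05 for *MBTPS1* (r = 0.78, exact permutation p = 0.0347), *ATF6B* (0.83, 0.0417) and *ERN1* (0.81, 0.0486). It also did so, with negative r, for the degradation gene *SELENOS* (-0.86, exact permutation p = 0.00694) and for *ATF3* (-0.81, 0.0139). Without N1 and T1, *TXNDC5* had r = 0.50, *SERPINH1* 0.66, *NUPR1* 0.68 and *P4HB* 0.70. As measured over all 7 samples, none of the 19 genes of ER-associated degradation had an exact permutation p under 0.05, and no gene of any list had an adjusted p under 0.05.

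The level of each response gene relative to *COL1A2* within a sample, which does not depend on scaling between samples, spanned a wide range and did not separate the groups. Per 1000 FPKM of *COL1A2*, *HSPA5* ranged from 41.5 FPKM in T1 to 4856 FPKM in T3, and *DDIT3* from 0.743 FPKM in N1 to 160 FPKM in T3. For *HSP90B1*, *ATF4*, *HERPUD1*, *DNAJB9*, *PDIA4* and *CRELD2* the highest ratio was that of N8, the sample with the least *COL1A2*, and for *SEL1L* that of N9. The log2 ratio of *HSPA5* to *COL1A2* was -4.52 (N1), -1.22 (N3), 1.33 (N8) and -0.37 (N9) for non-tumor and -4.59 (T1), 2.28 (T3) and -2.21 (T10) for tumor. Tumor differed from non-tumor by -0.31 (exact permutation p = 0.8), and T1 and T3 were the lowest and highest of all samples. Over the 9 genes the difference in the log2 ratio was negative in each, from -0.07 for *DDIT3* to -2.62 for *SEL1L*. Exact permutation p ran from 0.286 to 0.971. The 9 ratios share *COL1A2*, whose log2 fold change (2.37) was above that of each of the 9 genes. The common sign is therefore not 9 separate results. Without T1 it stayed negative only for *ATF4*, *PDIA4* and *SEL1L*.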

How the data were processed

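Reads were trimmed by the authors (Trim Galore) and mapped with TopHat to CanFam3.1 and its Ensembl iGenomes annotation, and the authors computed FPKM per gene and sample with Cuffdiff; tool versions and scaling between libraries are not given in the sources used here. The deposited FPKM of all 7 samples were analysed (0 per-sample columns unused). From a second table of the authors' own group comparison (group FPKM, fold changes, test statistics, p and q values), only gene intervals were taken, with 1 added to each start. Some intervals hold several genes, and whether counting used strand is not stated. The response genes and lists were chosen with earlier results of these data known.

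All tests used log2(FPKM + 1) of the genes whose mean over the samples reached 1 FPKM, and groups were compared with limma 3.58.1 (empirical Bayes, mean-variance trend) in R 4.3.3. Exact permutation tests and correlations used Python 3.11.15, numpy 2.4.6 and scipy 1.17.1, and figures matplotlib 3.10.9. The scripts were tested on simulated data. All response genes and *COL1A2* were named, with each list gene past the threshold and the 5 genes most like *HSPA5*; the 5 most like *XBP1* could not be computed. List genes correlated with *COL1A2*, the sensor genes, *CALR*, *CANX*, *ATF3*, *MZB1*, *SPP1*, *SP7*, *RUNX2* and the neighbours of *DDIT3* and *HSPA5* were named after their values were seen. FPKM keep no read counts, so depth could be estimated only roughly.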

Additional observations from a re-analysis of the deposited data

Results flagged for a closer look

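Of 26 groups checked, 3 held a sample whose gap to its nearest neighbour was large against the range of the 4 non-tumor samples on the log2(FPKM + 1) scale, at a level that chance alone gives in about 1 group of 20. Only non-tumor groups were checked, because the 3 tumor samples were too few for the limits used. T3 was therefore not examined here. For *SEL1L* it was N9, with 0.862 of the range (76.7 FPKM against 13.6 to 17.3 FPKM). For *ERO1A* it was N3, with 0.869 of the range (28.9 FPKM against 9.77 to 11.3 FPKM). For *SEC61B* it was N9, with 0.917 of the range (23.2 FPKM against 158 to 188 FPKM). N9 was therefore high for *SEL1L* and low for *SEC61B*.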

How the results depend on the processing

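Of 162 log2 fold changes of the 9 genes under alternatives, 11 lost the call, 2 gained it and 5 changed sign. The 4 calls became 2 to 4 when 1 sample was left out, and 926 called genes became 319 to 1997 (319 without N8, 424 without T10, 603 without T3, 1997 without N1). Sample weights gave 1857 called genes. Values that changed sign were *ATF4* (-0.09 without N1 and -0.48 without T3, in a range of -0.48 to 0.58 when 1 sample was left out) and *SEL1L* (0.32 without N9, in a range of -0.49 to 0.32). Rescaling each sample to the same FPKM sum moved the median of all genes to 0.12 and the share of calls that were higher from 47.8% to 35.6%, and *HSP90B1* lost its call at a log2 fold change of 1.88. Calls higher then fell to 1 chaperone or foldase, 0 degradation genes, 2 entry and export genes and 1 sensor or regulator, with list medians of 1.26, 0.19, 0.99 and 0.42. Quantile normalization gave 4 degradation and 2 entry and export genes called higher (6.72% of all genes called). Without the filter on low levels 2 ATF4 and CHOP targets were called higher (4.19%), and with sample weights 6 entry and export genes (13.7%). The number of genes correlated with *COL1A2* (1) was 2 after rescaling (21.2% of all genes), 2 after quantile normalization (15.0%), 2 with group means removed (11.3%), 0 with the mean of *COL3A1*, *COL5A1* and *COL5A2* in its place (12.4%), and 0 to 2 when 1 sample was left out (8.01% to 15.6%). Coefficients that changed sign were *DNAJB9* (0.020) and *SEL1L* (0.17) after rescaling, *HSPA5* (-0.037) and *DDIT3* (-0.27) with group means removed, and *DDIT3* without N8 (in a range of -0.10 to 0.81 when 1 sample was left out). None of the 72 alternative values of the ratios to *COL1A2* moved by more than the spread between samples, but that spread was wide. For *HSPA5* the SD of the log2 ratio was 3.49 in tumor and 2.45 in non-tumor, so changes of sign were not flagged. Without T1 the difference turned positive for *HSPA5*, *HSP90B1*, *DDIT3*, *HERPUD1*, *DNAJB9* and *CRELD2*. Leaving out samples was added for the lists after seeing the data and moved 28 of 70 counts. The cause of these changes was not tested.

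A replicate block on numbers 1 and 3, which the labels do not tie to dogs, correlated deviations at 0.42 and 0.21. As a fixed block, with 4 samples, it called 1 response gene (*CRELD2*) and 241 genes, with *PDIA4* at -0.025 and *SEL1L* at 0.30, and *COL1A2* was at 0.12. As a random block over 7 samples it called 5 response genes, *DNAJB9* (1.51) joining the 4, and 1062 genes. T1 was above N1 for 9 of 9 response genes and T3 above N3 for 8, all but *PDIA4*. The share of all tested genes with that order was not counted. The summed FPKM of all genes was also higher in T1 (1119453) than in N1 (539648), and in T3 (902351) than in N3 (688747).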
